A study of Mus musculus with 24 samples.

Results

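The Notch receptors, ligands and targets described here are 8 genes of 57010 rows in each of the count tables. They are the receptors Notch1, Notch2 and Notch3, the ligands Jag1, Jag2 and Dll1, and the target genes Hes1 and Hey1. Members were taken by gene name from both tables. They were chosen with earlier results of these data known, and Notch3 was chosen on its pull-down value, so its values in the pull-down libraries are given as a description with no test. The libraries came from GT1-7, an immortalised mouse hypothalamic line that makes gonadotropin-releasing hormone, and the study asked which RNAs go with makorin ring finger protein 3 (Mkrn3), a RING and zinc-finger protein known in people as a brake on puberty. The fractionation experiment measured Mkrn3ox cytoplasm, Mkrn3ox total, wt cytoplasm and wt total RNA, where Mkrn3ox is a GT1-7 line with stable GFP-Mkrn3 and wt is the unmodified line. Its comparison has no line that carries GFP alone, and the sources used here do not say whether Mkrn3ox is 1 clone or a pool. The RNA immunoprecipitation (RIP) experiment measured GFP-Mkrn3 IP, GFP-Mkrn3 input, GFP IP and GFP input RNA. There, GT1-7 cells received 6 µg of GFP-Mkrn3 or GFP plasmid for 24 h, 5% of the lysate was kept as input, and the rest was pulled down on beads that bind GFP. Each of the 8 groups had 3 libraries.

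Notch receptors sit at the cell surface and bind Jagged or Delta ligands on neighbouring cells. Binding lets ADAM proteases and then gamma-secretase cut the receptor, and the freed intracellular domain joins RBPJ in the nucleus and switches on Hes and Hey genes, which encode transcriptional repressors. In the developing mouse nervous system this pathway is known for holding neural progenitors back from becoming neurons.

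All 8 genes passed the filter on low counts in the RIP table, where 13052 genes were tested, and 3 of them (Notch1, Notch2 and Jag1) passed in the fractionation table, where 5033 were. Fractionation libraries held 374386 to 759271 counts and RIP libraries 6254703 to 14575652. Levels are CPM values after TMM scaling, counts divided by a scaled library total, and are compared between groups of 1 table and never between genes. Changes are log2 fold changes from edgeR's quasi-likelihood test with its standard error (SE). A gene is called at a Benjamini-Hochberg adjusted p under 0.05 over all tested genes. No label says that the 3 libraries of a group are separate cultures, so p-values speak for the spread of these libraries alone, and that spread may be technical. The Mkrn3 row held 86579 to 141568 counts in GFP-Mkrn3 IP, 28280 to 32451 in GFP-Mkrn3 input, 33 to 60 in GFP IP and 36 to 60 in GFP input. In the fractionation table that row held 0 to 5 counts per Mkrn3ox library and 0 to 1 per wt library, so the files hold no check of the stable line. Of 8 neuronal markers, Gnrh1 and Map2 were detected in every group. The other 6 held 0 to 6 counts per fractionation library: Elavl4 was at 0 in all groups of both tables, Snap25 in all RIP groups, Tubb3 in wt total, Elavl3 in both wt groups, and Stmn2 in all fractionation groups but wt total.

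The fractionation rows need care about strand. There mt-Nd6, the mitochondrial mRNA made from the strand opposite to the others, held 36877 to 135260 counts per library. In wt total, Tsix held 1623 to 2266 counts and its sense partner Xist 139 to 159, whereas GFP input held 0 to 4 of Tsix and 434 to 479 of Xist. The sources used here do not state the strand setting. Tsix and Xist thus stood in opposite order in wt total and GFP input. A fractionation value therefore belongs to the named row and may hold reads of the other strand, in part or in full. On the GRCm38.p6 annotation Notch1 (chromosome 2, 26457902 to 26503822, minus strand) overlaps the plus-strand noncoding gene 0610009E02Rik, and Notch2 (chromosome 3, 98013538 to 98150367, plus strand) overlaps the minus-strand Gm40103. Notch3 (chromosome 17, 32120820 to 32166896, minus strand) overlaps Gm38585 and Gm41568, both on the plus strand. The gene nearest to Jag1 (chromosome 2, 137081451 to 137116520, minus strand) is Slx4ip on the plus strand, whose end lies 99 bases from that of Jag1.

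The promoter windows of Notch2 and Jag1 are shown because these are the members whose IP-to-input change was called as different between the plasmids. Each window is 300 bases around the gene start, from RefSeq on GRCm38.p6, read 5′ to 3′ on the strand of the gene: chr3:98013288-98013587 (plus) for Notch2 and chr2:137116471-137116770 (minus) for Jag1. Capitals mark CACGCG, a site that HES repressors are known to bind, on either strand.
Notch2: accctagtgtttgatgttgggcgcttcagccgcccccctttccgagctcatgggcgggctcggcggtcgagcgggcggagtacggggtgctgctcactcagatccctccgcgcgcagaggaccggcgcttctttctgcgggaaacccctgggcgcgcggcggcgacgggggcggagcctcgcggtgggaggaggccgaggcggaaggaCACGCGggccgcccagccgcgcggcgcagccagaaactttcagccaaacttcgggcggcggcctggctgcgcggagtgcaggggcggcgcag
Jag1: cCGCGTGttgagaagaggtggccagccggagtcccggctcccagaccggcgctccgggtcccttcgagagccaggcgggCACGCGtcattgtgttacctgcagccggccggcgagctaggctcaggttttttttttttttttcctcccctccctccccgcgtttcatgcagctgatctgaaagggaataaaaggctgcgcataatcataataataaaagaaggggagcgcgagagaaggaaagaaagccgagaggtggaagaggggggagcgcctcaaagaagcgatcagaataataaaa
The Notch2 window held 1 such site and the Jag1 window 2. No window is shown or searched for Hes1 and Hey1. Of 7 windows found for the other 6 members, 4 held CACGCG, against 9.27% of all 32851 windows. Those 7 windows were 55.7% to 86% G and C, and windows of like composition were not compared. None of the 7 held TGGGAA, the core letters of RBPJ sites, which 25.6% of all windows hold, and none held the E-box CACGTG, which 7.15% hold. A match is a description of letters and not a bound site, no match says only that these letters are not in this window, and neither experiment measured the promoters.

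The first question was which of these mRNAs came down with GFP-Mkrn3, against its own input and against GFP. Jag1, which encodes a Jagged ligand, was measured at 339, 380 and 306 CPM in GFP-Mkrn3 IP and at 266, 267 and 309 CPM in GFP-Mkrn3 input. It was measured at 475, 469 and 455 CPM in GFP IP and at 251, 256 and 255 CPM in GFP input. The 3 GFP IP libraries stood above all 9 others, and the GFP-Mkrn3 IP and input libraries overlapped. Jag1 was higher in GFP-Mkrn3 IP than in its input by 0.29 (SE 0.0871, adjusted p = 0.0204) and higher in GFP IP than in its input by 0.88 (SE 0.0879, adjusted p = 1.96e-07). The call against the GFP-Mkrn3 input was lost on leaving out GFP-Mkrn3 input 1 or 2 or GFP-Mkrn3 IP 1 or 2, with adjusted p of 0.0989, 0.103, 0.0562 and 0.0942 in that order.

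Notch2, a receptor, was also highest in GFP IP and next in GFP-Mkrn3 IP, while its inputs overlapped. It was measured at 400, 435 and 407 CPM in GFP-Mkrn3 IP and at 379, 345 and 360 CPM in GFP-Mkrn3 input. In GFP IP it stood at 605, 566 and 541 CPM and in GFP input at 339, 358 and 389 CPM. The 3 libraries of GFP-Mkrn3 IP lay above those of both inputs and below those of GFP IP. The change of GFP-Mkrn3 IP over its input was 0.20 (SE 0.0799, adjusted p = 0.0755), which did not pass but was called with library size alone as the scaling (0.28, adjusted p = 0.0114). Notch2 was higher in GFP IP than in GFP input by 0.66 (SE 0.0802, adjusted p = 2.06e-06).

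Hes1, a repressor and classical Notch target, stood the other way round. It was measured at 32.5, 30.5 and 29.5 CPM in GFP-Mkrn3 IP and at 41.1, 43.0 and 50.3 CPM in GFP-Mkrn3 input. In GFP IP it was at 18.5, 22.3 and 25.4 CPM and in GFP input at 39.0, 42.9 and 50.5 CPM. Both IP groups lay below both inputs without overlap, and GFP IP was the lowest group. Hes1 fell by 0.54 in GFP-Mkrn3 IP relative to its input (SE 0.134, adjusted p = 0.00604), and this call was kept when any single library was left out (adjusted p up to 0.0430). In GFP IP it fell by 1.01 relative to GFP input (SE 0.141, adjusted p = 9.76e-06).

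Hey1, the related repressor, was measured at 30.9, 34.2 and 30.8 CPM in GFP-Mkrn3 IP and at 32.1, 39.4 and 34.3 CPM in GFP-Mkrn3 input. GFP IP held 21.3, 20.6 and 22.9 CPM and GFP input 28.0, 30.8 and 27.1 CPM. GFP IP lay below all 9 other libraries. The change of GFP-Mkrn3 IP over its input was -0.14 (SE 0.120, adjusted p = 0.416), which did not pass. Hey1 fell by 0.41 in GFP IP relative to GFP input (SE 0.127, adjusted p = 0.0120), and this call was lost without GFP input 2 (adjusted p = 0.0527) or without GFP IP 2 (adjusted p = 0.0502).

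**Figure D1:**
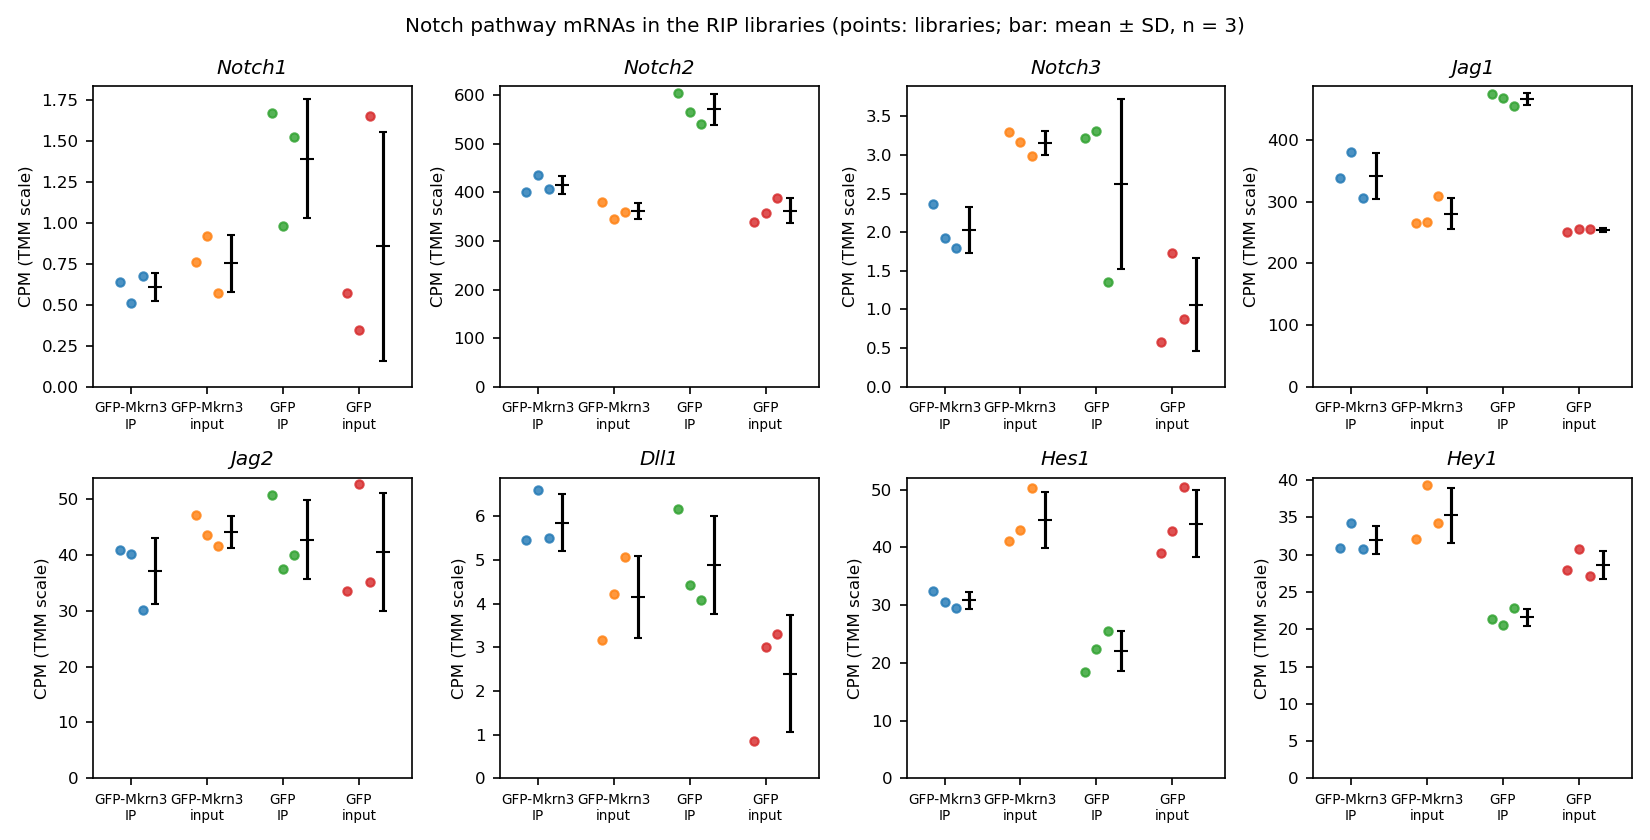
Level of each of the 8 mRNAs in the RIP libraries, in CPM on the TMM scale with an axis that starts at 0 in each panel. Points are libraries in 4 groups, and the bar beside them is the mean ± SD of 3 libraries. Jag1 and Notch2 were highest in GFP IP, and Hes1 and Hey1 were lowest there.

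Dll1, a Delta ligand, held 60, 103 and 49 counts in GFP-Mkrn3 IP, 25, 32 and 44 in GFP-Mkrn3 input, 48, 36 and 24 in GFP IP and 6, 26 and 30 in GFP input. Dll1 was higher in GFP IP than in GFP input by 0.99 (SE 0.358, adjusted p = 0.0266), and this call was lost without GFP input 1 (adjusted p = 0.0962) or GFP IP 1 (adjusted p = 0.133). Its change in GFP-Mkrn3 IP over the input was 0.50 (SE 0.321, adjusted p = 0.268). Jag2, the other Jagged ligand, averaged 37.1 ± 5.96 CPM in GFP-Mkrn3 IP, 44.0 ± 2.83 in GFP-Mkrn3 input, 42.7 ± 7.06 in GFP IP and 40.5 ± 10.6 in GFP input (SD, n = 3 each). Its changes over input were -0.24 (95% interval -0.59 to 0.10) with GFP-Mkrn3 and 0.08 (-0.27 to 0.43) with GFP, neither of which passed. Notch1 held 3 to 15 counts in every RIP library, and its intervals (-1.58 to 0.94 with GFP-Mkrn3 and -0.52 to 1.81 with GFP) span changes of over 1 log2 unit.

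Among the 7 members other than Notch3, GFP-Mkrn3 IP over its input had 1 higher (Jag1) and 1 lower (Hes1), where 13.9% of all tested genes were called higher and 12.8% lower. GFP IP over GFP input had 3 higher (Jag1, Notch2 and Dll1) and 2 lower (Hes1 and Hey1), where 25.1% of all tested genes were called higher and 25.2% lower. The inputs, GFP-Mkrn3 against GFP, had 0 of 7 called by edgeR, where 0.00766% of genes were called higher and 0.00766% lower. At an unadjusted p under 0.05 the inputs had 2 of 7, Dll1 (change 0.76) and Hey1 (change 0.30), and DESeq2 also called 0. With library size alone as the scaling, the calls over all genes split into 2599 higher and 1263 lower for GFP-Mkrn3 IP over its input, against 1812 and 1675 with TMM, and into 2554 higher and 3952 lower for GFP IP over its input, against 3274 and 3291. The member calls named here kept their direction under every scaling tried.

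**Figure D2:**
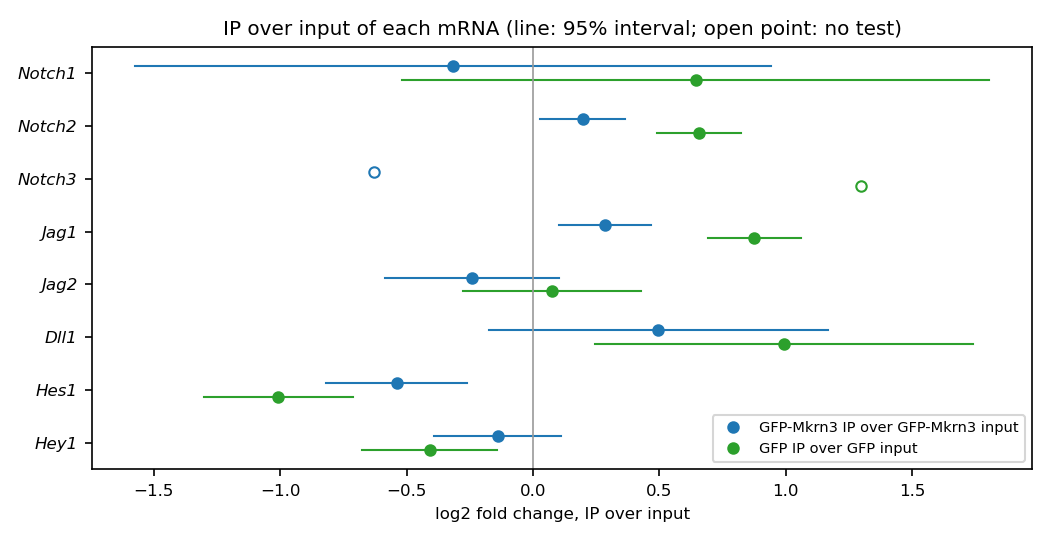
Log2 fold change of IP over input for each mRNA, with GFP-Mkrn3 drawn above GFP. Points are fitted changes, lines are 95% intervals, and the open points of Notch3 carry no test. Jag1 and Notch2 lie further above 0 with GFP than with GFP-Mkrn3, and Hes1 lies further below 0 with GFP.

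Set directly against each other, the pull-downs differed in 4 of these 7 members. Relative to GFP IP, GFP-Mkrn3 IP was lower in Notch2 (-0.46, SE 0.0798, adjusted p = 0.000182) and Jag1 (-0.45, SE 0.0868, adjusted p = 0.000517). It was higher in Hes1 (0.49, SE 0.141, adjusted p = 0.0102) and Hey1 (0.57, SE 0.125, adjusted p = 0.00142). Of all tested genes 20.4% were called higher and 17.2% lower in this comparison, and the Hes1 call was lost without GFP IP 1 (adjusted p = 0.0655). Once each IP was taken relative to its own input, the IP-to-input change was lower with GFP-Mkrn3 than with GFP for Jag1 (-0.59, SE 0.123, adjusted p = 0.00215) and Notch2 (-0.46, SE 0.113, adjusted p = 0.00663). Hes1 at 0.47 (SE 0.194, adjusted p = 0.0861) and Hey1 at 0.27 (SE 0.175, adjusted p = 0.284) did not pass. In this last comparison 13.2% of all tested genes were called higher and 11.1% lower. With library size alone as the scaling, the median change of all genes stood at 0.23, against 0.04 on the TMM scale, and the calls over all genes split into 2845 higher and 603 lower, against 1724 and 1454. On that scaling the IP-to-input difference of Jag1 at -0.39 (adjusted p = 0.0268) was still called, Notch2 at -0.27 (adjusted p = 0.0809) was not, and Hes1 at 0.66 (adjusted p = 0.0193) was called. For the IPs set directly against each other, library size alone gave 4104 genes higher and 1154 lower, against 2661 and 2246, with a median of 0.21, against 0.03. There Notch2 at -0.28 (adjusted p = 0.00688) and Jag1 at -0.27 (adjusted p = 0.0214) were still called. These comparisons share the same IP libraries.

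Notch3, a receptor, is given as a description because it was chosen on these values. It held 26, 30 and 16 counts in GFP-Mkrn3 IP, 26, 24 and 26 in GFP-Mkrn3 input, 25, 27 and 8 in GFP IP and 4, 15 and 8 in GFP input. On the CPM scale GFP-Mkrn3 IP stood at 2.36, 1.92 and 1.80 and its input at 3.30, 3.16 and 2.99, with no overlap. GFP IP stood at 3.21, 3.31 and 1.36 CPM and GFP input at 0.57, 1.73 and 0.88 CPM, which overlapped. The fitted IP-to-input changes were -0.63 with GFP-Mkrn3 and 1.30 with GFP, a difference of -1.93. The inputs themselves differed by 1.53, GFP-Mkrn3 over GFP, and the IPs by -0.40. Leaving out single libraries gave differences of -2.47 to -1.67. The value of -2.47 came without GFP input 2, which held the most Notch3 counts of the GFP inputs. The genes whose log2 CPM followed Notch3 most closely over the 12 RIP libraries were Pik3c2b (Pearson r 0.863), Akap7 (0.863), Fam98b (0.819), Fzd1 (0.785) and Pitpnc1 (0.782) of 11308 compared. Among the members r with Notch3 was 0.69 for Dll1, 0.52 for Jag2, 0.37 for Jag1, 0.29 for Notch2, 0.10 for Hey1, 0.01 for Notch1 and -0.27 for Hes1. These 12 points share groups and depth, and the values are a description. The 5 genes were taken as the highest of 11308 values of r, with Notch3 at 4 to 30 counts per library. How high r would rise by chance in such a search was not tested.

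Across all tested genes, the change of GFP IP over its input went with the length of the gene on the genome, and the members are set beside that here. Hes1 spans 2.44 kb, Hey1 3.68 kb, Dll1 9.58 kb, Jag2 22.0 kb, Jag1 35.1 kb, Notch1 45.9 kb, Notch3 46.1 kb and Notch2 137 kb. For GFP IP over GFP input the median change was -0.80 in the 849 genes under 3 kb and -0.41 in the 2201 genes of 3 to 10 kb. It was -0.08 in the 3963 genes of 10 to 30 kb, 0.17 in the 3444 of 30 to 100 kb and 0.26 in the 1517 over 100 kb (Spearman's rho 0.416 across 11974 genes). For GFP-Mkrn3 IP over its input the medians ran only between -0.16 and 0.05 (rho 0.0861). For the difference of the IP-to-input changes they ran from 0.58 under 3 kb to -0.22 over 100 kb (rho -0.393). Set against genes of their own span class, Hes1 (-1.01) and Hey1 (-0.41) lay within the interquartile range of the GFP IP changes, whose bounds were -1.44 and -0.15 under 3 kb and -0.88 and 0.02 at 3 to 10 kb. Jag1 (0.88) lay above the upper quartile of 0.46 at 30 to 100 kb and Notch2 (0.66) above that of 0.53 over 100 kb. Dll1 (0.99) lay above the upper quartile of 0.02 of its class, whose median was -0.41. The uncalled Notch1 (0.65) lay above its upper quartile of 0.46, and Jag2 (0.08) within its range. For GFP-Mkrn3 IP over its input, Jag1 (0.29) lay just above its upper quartile of 0.27 and Hes1 (-0.54) at its lower quartile of -0.54. Of the uncalled members, Notch2 (0.20) and Hey1 (-0.14) lay within their ranges and Dll1 (0.50) above its upper quartile of 0.29. Notch1 (-0.32) lay below its lower quartile of -0.19 and Jag2 (-0.24) at that of -0.24. For the difference, Jag1 (-0.59) and Notch2 (-0.46) lay below the lower quartiles of -0.39 and -0.45 of their classes. The uncalled Dll1 (-0.50), Jag2 (-0.32) and Notch1 (-0.96) also lay below theirs, of -0.01, -0.21 and -0.39. Hes1 and Hey1 lay within the interquartile range. Genes are not independent replicates, and the part of gene length in the members' changes was not tested. Marker lists moved over the same groups. The summed level of 11 vascular, fibroblast and immune markers, of which Lum and Ptprc were at 0 in all RIP groups, was 271 to 306 CPM in GFP-Mkrn3 IP, 225 to 246 in its input, 444 to 503 in GFP IP and 247 to 262 in GFP input. Kdr, which encodes a vascular endothelial growth factor receptor, made up most of it, with 1529 to 3676 counts per RIP library. The 8 neuronal markers summed to 254 to 301 CPM in GFP-Mkrn3 IP, 388 to 438 in its input, 153 to 168 in GFP IP and 352 to 413 in GFP input. The part of these markers in the members' changes was not tested.

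**Figure D3:**
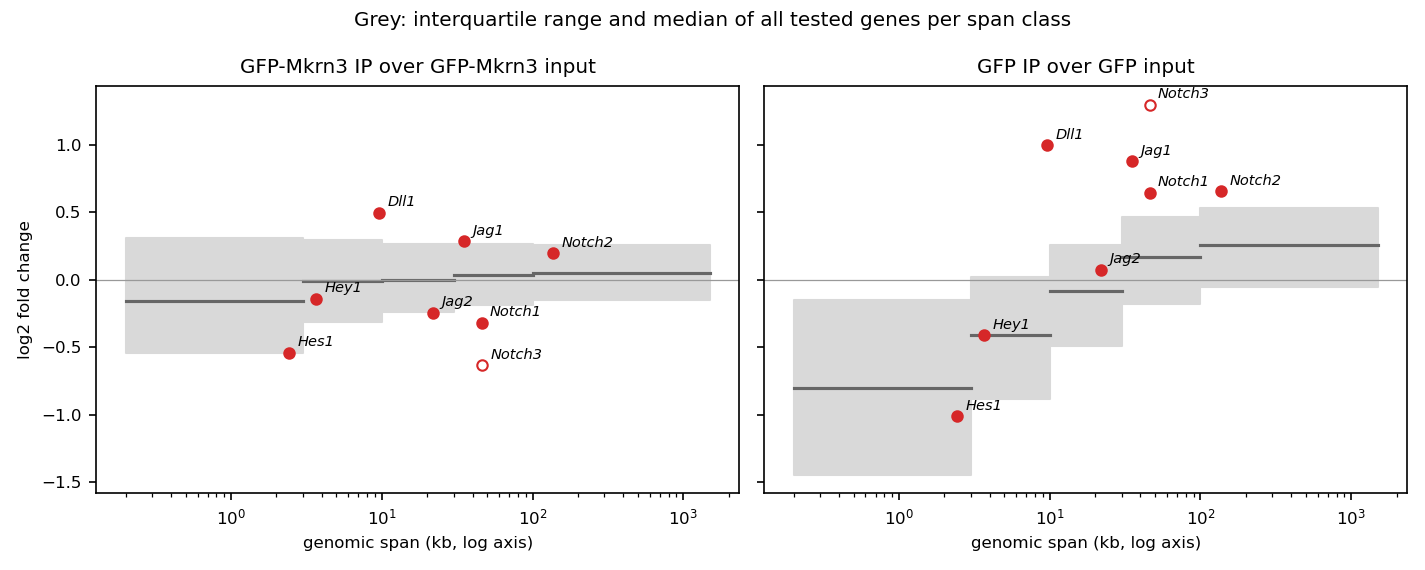
Log2 fold change of IP over input against the genomic span of the gene in kb on a log axis, GFP-Mkrn3 on the left and GFP on the right. Grey boxes show the interquartile range and the line the median of all tested genes per span class, red points are the 8 members, and Notch3 is open because it carries no test. The medians climb with span in the GFP panel, from -0.80 to 0.26, and stay between -0.16 and 0.05 in the GFP-Mkrn3 panel.

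The other question was how the stable GFP-Mkrn3 line differed from wt cells, and here Notch2 was the member called among the 3 tested. The Notch2 row was measured at 133, 206 and 156 CPM in Mkrn3ox total and at 337, 254 and 304 CPM in wt total. In the cytoplasm it was at 110, 155 and 111 CPM in Mkrn3ox and at 225, 225 and 230 CPM in wt. All Mkrn3ox libraries lay below all wt libraries of the same fraction. Notch2 fell by 0.85 in Mkrn3ox total relative to wt total (SE 0.245, adjusted p = 0.0361) and by 0.86 in Mkrn3ox cytoplasm relative to wt cytoplasm (SE 0.256, adjusted p = 0.0343). Notch2 was the only one of the 3 tested members called in either fraction: 3.56% of all tested genes were called higher and 3.83% lower in total RNA, and 4.31% higher and 6.14% lower in the cytoplasm. Both calls lay near the threshold. With library size alone as the scaling the change was -0.73 in total RNA (adjusted p = 0.0611), where the median of all genes was 0.10, and -0.51 in the cytoplasm (adjusted p = 0.183), where that median was 0.38 and 507 genes were called higher and 189 lower, against 217 and 309. In total RNA that split was 252 higher and 163 lower, against 179 and 193. The total RNA call was lost without wt total 1 or 3 or Mkrn3ox total 1 or 3 (adjusted p = 0.111, 0.116, 0.186 and 0.139 in that order), with changes of -0.76, -0.84, -0.72 and -0.83. The cytoplasm call was lost without wt cytoplasm 1, 2 or 3 or Mkrn3ox cytoplasm 1 or 3 (adjusted p = 0.0831, 0.0833, 0.0709, 0.129 and 0.129 in that order). The Notch2 row may hold reads of the other strand. In bulk samples fewer cells that make an RNA and less of it per cell cannot be told apart. In the RIP inputs, 24 h after GFP-Mkrn3 or GFP plasmid, the Notch2 change was -0.002 (95% interval -0.17 to 0.17). The RIP and fractionation values of Notch2 may not count the same strand.

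Other measures moved between the lines too. The mt-Nd6 row, the largest of those checked, stood at 86253 to 89114 CPM in Mkrn3ox total and 141420 to 183340 in wt total, and at 91991 to 115648 CPM in Mkrn3ox cytoplasm and 209696 to 287402 in wt cytoplasm. With that row left out, Notch2 was at -0.84 in total RNA (adjusted p = 0.0377) and -0.85 in the cytoplasm (adjusted p = 0.0373), and Jag1 between fractions at -1.51 in Mkrn3ox (adjusted p = 0.00110) and -1.28 in wt (adjusted p = 0.00359). The Tsix row held 3 to 15 counts in Mkrn3ox total and 1623 to 2266 in wt total, and the Xist row 0 in Mkrn3ox total and 139 to 159 in wt total. The summed level of the 11 vascular, fibroblast and immune markers was 27.6 to 99.8 CPM in Mkrn3ox total and 5.40 to 11.5 in wt total, with 6 of the 11 (Pecam1, Cdh5, Col3a1, Lum, Cd68 and Aif1) at 0 in each group. In the cytoplasm that sum was 22.5 to 35.5 CPM in Mkrn3ox and 2.59 to 21.2 in wt. Only 1 of the 11 passed the filter on low counts. The 10 astrocyte and oligodendrocyte markers summed to 0 to 7.31 CPM in Mkrn3ox total and 1.80 to 16.5 in wt total. In the cytoplasm they summed to 4.99 to 37.6 CPM in Mkrn3ox and 0 to 6.37 in wt. The 8 neuronal markers summed to 133 to 198 CPM in Mkrn3ox total and 90.1 to 133 in wt total. Their cytoplasm sums were 219 to 275 CPM in Mkrn3ox and 103 to 223 in wt, which overlapped. The part of the Tsix and Xist rows and of the markers in the Notch2 result was not tested.

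Jag1 was called between the fractions and not between the lines. The Jag1 row was measured at 449, 529 and 556 CPM in Mkrn3ox cytoplasm and at 1557, 1510 and 1349 CPM in Mkrn3ox total. In wt it was at 378, 535 and 1039 CPM in the cytoplasm and at 1259, 1922 and 1569 CPM in total RNA. Each cytoplasm library lay below each total library of its line, and wt cytoplasm 3 stood closest to the total libraries. Jag1 fell by 1.52 in Mkrn3ox cytoplasm relative to Mkrn3ox total (SE 0.257, adjusted p = 0.00103) and by 1.29 in wt cytoplasm relative to wt total (SE 0.255, adjusted p = 0.00351). Both calls were kept under all 28 alternatives tried. Of all tested genes 0.775% were called higher and 3.76% lower in the Mkrn3ox comparison, and 0.616% higher and 3.16% lower in wt. The difference between the lines in this change was -0.24 (95% interval -0.98 to 0.50, adjusted p = 0.880), where 0.0795% of genes were called higher and 0.139% lower. None of the 3 tested members was called there by edgeR or DESeq2, with 0 at an unadjusted p under 0.05. Slx4ip ends beside Jag1 on the other strand. Its row held 2 to 12 counts in Mkrn3ox total, 2 to 17 in wt total and 0 to 1 in each cytoplasm group. The Jag1 and Slx4ip rows may each hold reads of the other strand. Low counts in the Slx4ip row therefore cannot show that the Jag1 row holds Jag1 mRNA alone. The change of Jag1 between the lines was -0.11 (95% interval -0.62 to 0.41) in total RNA and -0.34 (-0.88 to 0.19) in the cytoplasm, and it turned to 0.14 in the cytoplasm without wt cytoplasm 3.

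**Figure D4:**
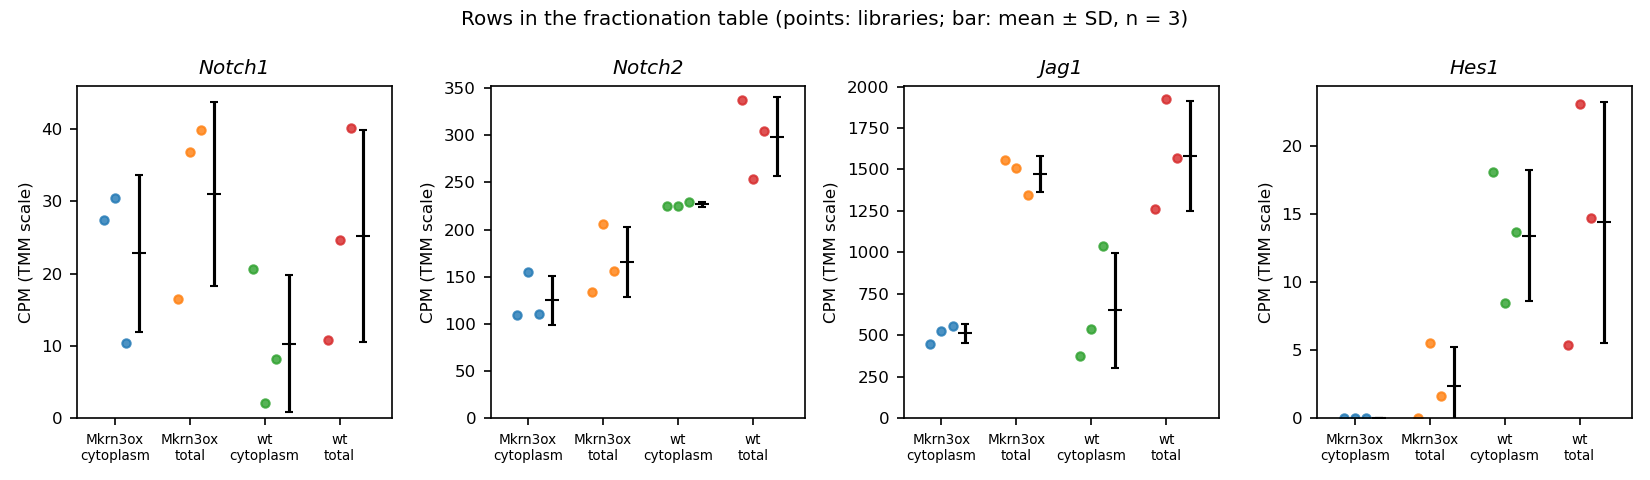
Level of the Notch1, Notch2, Jag1 and Hes1 rows in the fractionation libraries, in CPM on the TMM scale with an axis that starts at 0. Points are libraries in 4 groups, and the bar beside them is the mean ± SD of 3 libraries. Notch2 was lower in Mkrn3ox than in wt in both fractions, Jag1 was lower in cytoplasm than in total RNA in both lines, and Hes1 was at 0 in Mkrn3ox cytoplasm.

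The other rows were sparse in the fractionation table. Hes1 held 0, 0 and 0 counts in Mkrn3ox cytoplasm and 7, 4 and 5 in wt cytoplasm. The wt mean was 5.55-fold a floor of 3 counts over the Mkrn3ox cytoplasm group. That figure takes the wt mean as it stands and leaves out the spread of the wt libraries. In total RNA it held 0, 3 and 1 counts in Mkrn3ox and 3, 14 and 11 in wt, which overlapped. Hes1 did not pass the filter on low counts. A fit without that filter, over 17726 genes, gave an adjusted p of 0.0665 in the cytoplasm and 0.592 in total RNA. Notch1, at 1 to 30 counts per library, had a fitted difference of 0.28 (95% interval -1.17 to 1.74) in total RNA and of 1.14 (-0.53 to 2.81) in the cytoplasm, Mkrn3ox over wt, and neither passed. Hey1 held 0 to 14 counts, Jag2 0 to 4 and Notch3 0 to 1 per library, and Dll1 held 0 in all 12. These 4 rows did not pass the filter. The Jag2 and Hey1 rows were low on the CPM scale too, with group means of 2.44 to 4.86 and 4.23 to 8.003 CPM. All rows of this paragraph may hold reads of the other strand, in part or in full. Low or 0 counts here therefore do not show that the mRNA of the named gene was scarce or lost.

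The rest of the pathway was described from 63 genes in 8 lists, of which 45 were tested in the RIP table and 22 in the fractionation table. Relative to GFP IP, GFP-Mkrn3 IP was higher in 11 of 45 and lower in 12, beside 20.4% and 17.2% of all tested genes. Mib1, the ubiquitin ligase that prompts ligand endocytosis, fell by 0.91, and Pofut1, which adds fucose to the receptors, fell by 0.73. Cntn1, a non-canonical ligand, fell by 0.72, and Adam10, a protease that cuts the receptor after ligand binding, fell by 0.66. Dtx3 and Dtx2, of the Deltex family of ubiquitin ligases, were higher by 0.92 and 0.72, Psenen, a gamma-secretase subunit, by 0.92, and Id1, a helix-loop-helix inhibitor, by 1.08 (adjusted p at most 0.000562 for these 8). For the difference of the IP-to-input changes 9 of 45 were higher and 7 lower, with a median of 0.00 against 0.04 over all tested genes. Mib1 (-0.85), Cntn1 (-0.78), Pofut1 (-0.66) and Adam10 (-0.76) were lower, and Dtx3 (0.91), Id1 (1.37), Rfng (1.11), a fringe glycosyltransferase, and Psenen (0.77) were higher. These counts stand beside the 13.2% and 11.1% of all tested genes.

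Against their inputs, 4 of the 45 were higher and 8 lower with GFP-Mkrn3, and 9 were higher and 12 lower with GFP. Over all tested genes the shares were 13.9% and 12.8% with GFP-Mkrn3 and 25.1% and 25.2% with GFP. Spen, a corepressor that acts with RBPJ, fell in both, by 0.93 in GFP-Mkrn3 IP (adjusted p = 1.61e-06) and by 0.68 in GFP IP (adjusted p = 8.05e-06). Id1 (0.78) and Hes6 (0.83), a Hes family member, were higher in GFP-Mkrn3 IP than in its input. In the inputs 0 of 45 were called by edgeR and by DESeq2, with 2 at an unadjusted p under 0.05.

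**Figure D5:**
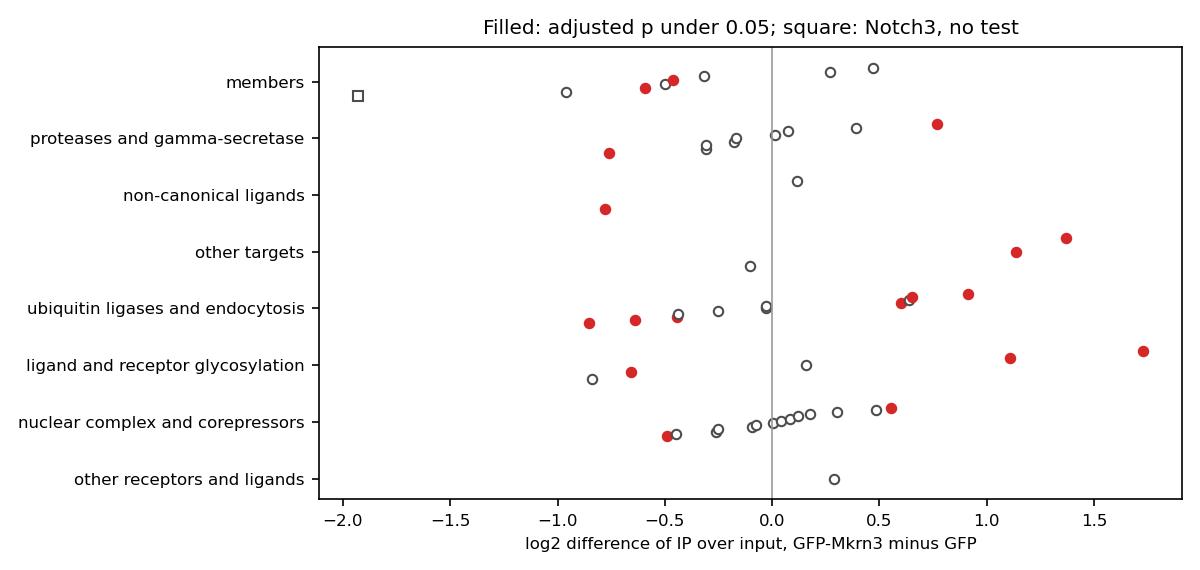
Log2 difference of the IP-to-input changes, GFP-Mkrn3 minus GFP, for the 8 members and the 45 tested pathway genes by list. Each point is a gene, filled where its adjusted p was under 0.05, and the square is Notch3 with no test. Filled points stand on both sides of 0 in 4 of the lists: the proteases, the ubiquitin ligases, the glycosylation enzymes and the nuclear complex.

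In Mkrn3ox total against wt total 2 of 22 pathway rows were higher and 1 lower, and in the cytoplasm 2 were higher and 3 lower. Over all tested genes the shares were 3.56% and 3.83% in total RNA and 4.31% and 6.14% in the cytoplasm. As with the members, a pathway row may hold reads of the other strand, and genes overlapping the pathway genes were not looked up. Adam17, another protease of the receptors, was higher by 1.63 in total RNA (SE 0.222, adjusted p = 4.02e-05) and by 1.85 in the cytoplasm (SE 0.229, adjusted p = 1.24e-05). Adam10 fell by 0.90 in total RNA (SE 0.228, adjusted p = 0.0159) and by 1.86 in the cytoplasm (SE 0.247, adjusted p = 2.58e-05). Cntn1 was higher in total RNA (1.69), Tle3, a corepressor, was higher in the cytoplasm (1.19), and Dtx4 (-2.19) and Aph1a (-1.28), a gamma-secretase subunit, were lower there. Between fractions Adam10 was the only pathway gene called, lower by 1.42 in Mkrn3ox cytoplasm than in Mkrn3ox total (adjusted p = 0.00119), and in wt 0 of 22 were called by edgeR and 2 by DESeq2, with 3 at an unadjusted p under 0.05 in edgeR.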

How the data were processed

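The deposited tables hold counts per gene, as whole numbers, made by the authors. Per the submitters' processing notes, reads were processed with cutadapt, STAR and HTSeq on mm10. The sources used here do not give versions, annotation, strand setting or whether molecular identifiers were used. All libraries were CEL-seq2, per the labels' protocols, and groups came from the labels.

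Each table was fitted separately in edgeR 4.0.16 (R 4.3.3) with TMM scaling, filterByExpr by group, group means and the two-sided quasi-likelihood F test over 10 contrasts. The biological coefficient of variation was 0.384 in the fractionation table and 0.115 in the RIP table. Alternatives were DESeq2 1.42.0 size factors or test, library size, no filter or a mean of 20 counts, the compared groups alone, a replicate block and leaving out each library. The fit was also run on simulated counts, whose outcome is not given here. Those counts were drawn with no difference in scaling between libraries, so they cannot speak to the choice of scaling. Intervals of changes are 95% intervals, and a floor covers only the counting error of the group at 0. Gene spans and promoters came from RefSeq tables on GRCm38.p6. Spans matched 91.7% of the tested RIP genes.

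The members and lists were chosen with earlier results of these data known. Pathway genes named are the called ones with a mean of at least 20 counts, up to 4 per direction with the smallest p. Not every gene so selected is reported here. Scripts ran in Python 3.11.15 with numpy 2.4.6, pandas 2.3.3, scipy 1.17.1 and matplotlib 3.10.9.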

Additional observations from a re-analysis of the deposited data

Results flagged for a closer look

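The IP-to-input change of Jag1 differed by -0.59 (log2, GFP-Mkrn3 minus GFP), by a test of the difference itself in edgeR. That of Notch2 was -0.46 by the same test. In IP over input, Jag1 passed the test with both plasmids and Notch2 with GFP. With GFP-Mkrn3, Notch2 also passed with library size alone as the scaling (adjusted p = 0.0114), and the Jag1 call was lost under 5 of 13 alternatives.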

How the results depend on the processing

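Of 235 alternatives tried on called members, 210 kept the call, 25 lost it and 0 changed direction. With library size alone, and with no filter on low counts, the number of members called for Mkrn3ox against wt was 0 in both fractions, against 1 in each, and with the compared groups alone it was 0 in the cytoplasm. For GFP-Mkrn3 IP against its input it was 1 with the compared groups alone and 3 with library size alone, which gained Notch2, against 2. Leaving out 1 library gave 0 to 1 members for Mkrn3ox against wt in each fraction and 1 to 2 for GFP-Mkrn3 IP against its input. The cause was not tested. Over all genes, leaving out a library gave as few as 234 calls in total RNA (main 372) and 125 between Mkrn3ox fractions (main 228). The inputs had 2, against 34 with no filter, 6 with DESeq2, 4 with the compared groups alone and 1 without single libraries, and the cytoplasm-to-total difference had 11, against 43 with no filter, 50 with DESeq2 and 35 without wt total 1.

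The main fit does not pair libraries by number. After removal of group means, the correlation of same-numbered libraries over 18 pairs was -0.0669 to 0.0393 in the fractionation table. In the RIP table it was -0.146 to 0.238, and -0.146 to 0.0144 between an IP and the input of its plasmid. With 3 libraries per group these values cannot show whether the numbers pair the libraries. Input was 5% of a lysate whose rest was pulled down, and the main fit does not use that link. The replicate block is shared by both plasmids, so it is not a block per lysate. With the replicate block Notch2 was at -0.87 (adjusted p = 0.0466) in total RNA and -0.87 (adjusted p = 0.0463) in the cytoplasm, and each count of called members was as without it.

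Values that changed sign were all uncalled. The difference between the lines in the cytoplasm-to-total change of Notch2 was 0.0164 with DESeq2 size factors, 0.0146 with the DESeq2 test, 0.00385 with the replicate block, 0.227 with library size, 0.117 with a mean of 20 counts and -0.193 to 0.172 without single libraries. That of Jag1 was 0.00102 with library size and -0.516 to 0.247 without single libraries. Without single libraries, Jag1 between the lines was -0.624 to 0.140 in the cytoplasm and -0.248 to 0.0497 in total RNA, and Notch1 -0.0705 to 0.791 in total RNA. Between the inputs, Notch2 was 0.00162 with no filter, and without single libraries Notch2 was -0.0455 to 0.0541, Hes1 -0.0715 to 0.130 and Notch1 -0.615 to 0.713. Jag2 in GFP IP over its input was -0.0372 with library size and -0.0786 to 0.313 without single libraries. Of the 8 members, 5 held at most 14 counts per fractionation library.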
